A study of Mus musculus with 6 samples.

Results

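Transcripts of 8 intermediate filament genes were followed in dorsal root ganglia of adult mice whose dams had been stressed in late gestation or left alone. They were the neurofilament heavy, medium and light subunits (Nefh, Nefm and Nefl), peripherin (Prph), internexin alpha (Ina), vimentin (Vim), nestin (Nes) and glial fibrillary acidic protein (Gfap). The genes were chosen by name, as the filament proteins of neurons and their glia, and all 8 were among the 55809 gene symbols counted and among the 20146 genes tested.

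Intermediate filaments are rope-like polymers of the cytoskeleton, built from rod-shaped proteins that pair as coiled coils. In large myelinated sensory neurons the light, medium and heavy neurofilament proteins assemble together and set the calibre of the axon, while peripherin is most abundant in small unmyelinated neurons. Internexin can join neurofilaments, vimentin fills most non-neuronal cells of the ganglion, nestin marks precursor, glial and vascular cells, and Gfap marks astrocytes and some peripheral glia.

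The ganglia came from C57BL6J mice at 8 weeks of age. In the prenatal stress group each dam was held in a tube in bright light for 30 min, in 3 sessions a day, from E13 to E18 in the protocol and from E13.5 to E18.5 in the design text. Dams of the control group were not disturbed. Each group was 3 pools, each of 3 mice by the sample titles, while the design text gives 9 mice a group and the protocol 3. Pools were counted as separate samples (n = 3), and n and every p rest on the titles being right. Poly-A RNA was sequenced from whole ganglia, so that fewer cells of a type and less RNA per cell cannot be told apart. The labels state that mice of both sexes were used and give neither the sex, the litter nor the cage of a pool, so the p-values cover how pools differed and may miss differences among litters.

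Gene counts ranged from 51.7 to 87.4 M per pool, and Gfap, the scarcest of the 8, had at least 664 reads in every pool. The number of pools rather than the depth therefore limited the precision. The labelled tissue carried its defining markers: Avil, an actin-binding protein of sensory neurons, stood at 1038 to 1087.5 CPM and Isl1, a sensory neuron transcription factor, at 89.8 to 101 CPM over the 6 pools (both chosen after their values were seen). Control pool 3 stood apart, with 10 skeletal muscle markers summing to 2548 CPM against 18.6 to 57.6 CPM in the other 5 pools. Control pools 2 and 3 and prenatal stress pool 2 stood apart in spinal cord glia markers, as given with Gfap.

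The coding sequences show what the 8 genes share and where the subunits differ. Near the end of the rod, each gene has the codons for a conserved stretch by which intermediate filament proteins are recognised. The 24 coding bases found there in GENCODE M21 transcripts (GRCm38) are printed 5′ to 3′, in capitals where a base differs from Nefl.
Nefl: tacagaaaactcttggaaggcgaa
Nefm: tacagGaaactcCtAgaGggGgaa
Nefh: tacagaaaGctcCtggaaggcgaa
Prph: tacagGaaGctACtggaaggGgaG
Ina: tacagGaaGctcCtggaaggTgaa
Vim: tacagGaaGctGCtggaaggcgaG
Nes: tacagGaCTctGCtggaGgCTgaG
Gfap: tacagGaaaTtGCtggaGggcgaa
Nefh differed from Nefl at 2 of these bases and nestin, the most distant, at 9.

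The tails behind the rod are where the subunits part. Lysine-serine-proline triplets, whose serines are phosphorylated in axons, were encoded 51 times in Nefh, 4 times in Nefm and 0 times in Nefl. The densest 90 coding bases of the Nefh and Nefm tails are shown because the subunit balance described below concerns these tailed subunits against the light one. Capitals mark the lysine-serine-proline codons, 5 in the Nefh stretch (codons 519 to 548, chromosome 11) and 2 in the Nefm stretch (codons 478 to 507, chromosome 14).
Nefh: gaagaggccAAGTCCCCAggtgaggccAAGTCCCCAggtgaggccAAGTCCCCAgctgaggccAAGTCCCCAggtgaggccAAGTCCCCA
Nefm: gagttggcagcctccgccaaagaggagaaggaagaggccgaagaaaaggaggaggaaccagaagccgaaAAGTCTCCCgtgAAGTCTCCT

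Neurofilament messages were among the most abundant of the ganglion. By mean CPM over the 6 pools, Nefm ranked 3 and Nefl ranked 4 among all genes tested, with Nefh at 24 and Prph at 84. The 8 genes together made up 1.12% to 1.24% of all gene counts in a pool.
Per length of transcript (CPM per kilobase of the transcript with the longest coding sequence, RPKM), Nefm was at 1298 ± 5.51 and Nefl at 1151 ± 48.2 in control pools (SD, n = 3). Prph followed at 558 ± 5.09 RPKM, then Nefh at 486 ± 10.5 RPKM and Vim at 240 ± 7.84 RPKM. Ina at 13.7 ± 1.34, Nes at 12.8 ± 1.34 and Gfap at 9.69 ± 5.98 RPKM were far lower, and their order differed from pool to pool. The first 5 kept their order in all 3 control pools.
In prenatal stress pools the per-length levels of Nefl (1253 ± 47.0 RPKM) and Nefm (1233 ± 56.9 RPKM) lay within their spread of each other, and Nefl was the higher in each of the 3 pools. With the longest annotated Nefm transcript, of 3680 and not 3334 bases, Nefm stood at 1176 ± 5.23 RPKM in controls and 1117 ± 51.6 RPKM in prenatal stress pools. Nefl then remained the higher in each prenatal stress pool, while the control order depended on the length: in control pool 2 Nefm (1181.5 RPKM) came to lie below Nefl (1186 RPKM). That longer transcript overlaps 1108 exonic bases of Nefl on the opposite strand. Whether the authors counted reads by strand is not known from the sources used, so reads of Nefl and Nefm could have been dropped or shared there.

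None of the 8 genes passed the test between prenatal stress and control. The test was edgeR's quasi-likelihood test with Benjamini-Hochberg adjustment over all genes, and adjusted p-values below come from it. Over all genes 0.129% passed, 0.0844% higher and 0.0447% lower. By DESeq2 also 0 of the 8 passed, and 2 of the 8, Nefl and Vim, had an unadjusted edgeR p under 0.05, against 11.1% of all genes. The pools of the groups did not overlap for 2 of the 8, Nefl higher and Nefm lower, against 18.1% of all genes. Of the 8 log2 fold changes 3 were positive, and their median was -0.06 beside 0.01 for all genes tested.

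**Figure D1:**
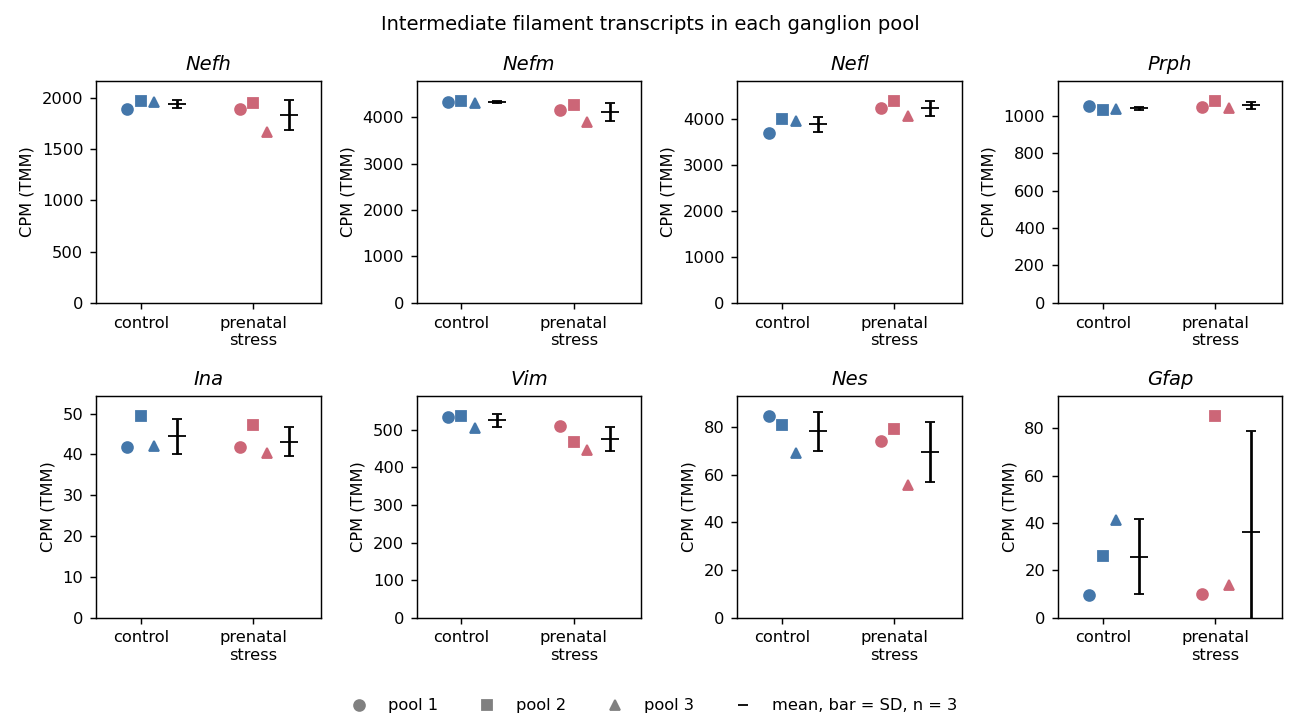
CPM with TMM scaling (vertical axis, from 0) of each of the 8 genes in the 3 control pools (blue) and 3 prenatal stress pools (red), with the mean and SD in black; the Gfap bar is cut at 0. Nefl lies higher and Nefm lower in all prenatal stress pools than in any control pool, and Gfap spreads from 9.57 to 85.1 CPM.

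**Figure D2:**
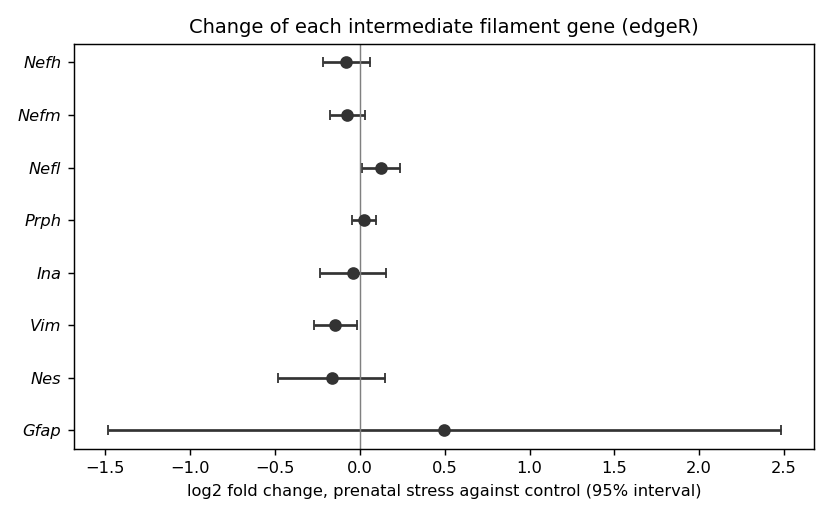
Log2 fold change of prenatal stress against control for each gene (point) with its 95% interval from the edgeR fit (bar). The intervals of Nefl and Vim leave out 0, that of Prph spans -0.05 to 0.09, and that of Gfap spans -1.49 to 2.48.

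Nefl, the light subunit with which the longer subunits assemble, stood at 3704, 4008 and 3958 CPM in control pools 1, 2 and 3 and at 4242, 4391 and 4074 CPM in prenatal stress pools 1, 2 and 3. Every prenatal stress pool was above every control pool, with control pool 1 the lowest. The log2 fold change was 0.12 ± 0.05 (SE), a fold of 1.09 with a 95% interval of 1.01 to 1.18 (adjusted p = 0.428). It ranged from 0.09 to 0.14 over the 15 other ways of running the test, with adjusted p from 0.162 to 0.65.
Nefm, the medium subunit, stood at 4328, 4348 and 4309 CPM in control pools and at 4158, 4272 and 3901 CPM in prenatal stress pools. The control pools were nearly level, with a coefficient of variation of 0.445%, and all prenatal stress pools were below them. The log2 fold change was -0.07 ± 0.04, a fold of 0.95 with an interval of 0.884 to 1.02 (adjusted p = 0.564). Without prenatal stress pool 3, its lowest, the value was -0.045 ± 0.0326.
Nefh, the heavy subunit with the long tail, stood at 1892.5, 1968 and 1962 CPM in control pools and at 1888.5, 1950 and 1670 CPM in prenatal stress pools. The groups overlapped, and prenatal stress pool 3 was the low one. The log2 fold change was -0.08 ± 0.06 (adjusted p = 0.662, fold interval 0.859 to 1.04), and -0.02 ± 0.03 without prenatal stress pool 3.

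Summed over the 3 subunits the neurofilament message was level. The sum was 10159 ± 209 CPM in control pools and 10182 ± 493 CPM in prenatal stress pools (SD, n = 3 each; exact two-sided permutation p = 0.9). The shares inside that sum separated the pools by group, without passing a test. Of the counts of the 3 subunits, Nefl made up 37.3%, 38.8% and 38.7% in the control pools and 41.2%, 41.4% and 42.2% in the prenatal stress pools. Nefm made up 42.1% to 43.6% in control and 40.3% to 40.4% in prenatal stress pools, and Nefh 19.1% to 19.2% and 17.3% to 18.4%. All 3 shares separated the groups, each with the smallest p that an exact permutation of 3 against 3 pools allows (0.1). The shares are parts of the same sum, so a higher share of Nefl lowers the others and the 3 separations are not independent.

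**Figure D3:**
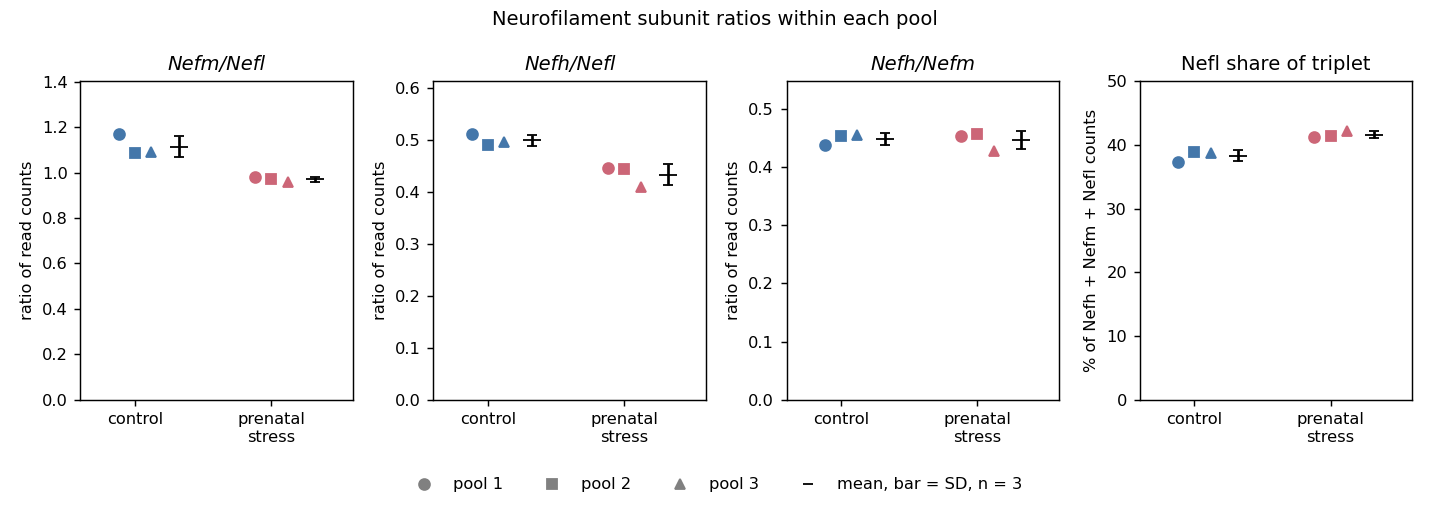
Ratios of read counts within each pool for Nefm to Nefl, Nefh to Nefl and Nefh to Nefm, and the Nefl share of the 3 subunits in percent, all from 0, in control (blue) and prenatal stress (red) pools with mean and SD. Both ratios to Nefl are lower in every prenatal stress pool than in any control pool, and the ratio of Nefh to Nefm overlaps.

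Ratios within a pool do not depend on library size or scaling. The ratio of Nefm to Nefl counts was 1.17, 1.08 and 1.09 in the control pools and 0.98, 0.973 and 0.958 in the prenatal stress pools. The means were 1.11 ± 0.0473 and 0.97 ± 0.0116, a log2 difference of -0.20, with no overlap between groups but at the smallest p allowed (exact two-sided permutation p = 0.1; 0.267 adjusted over the 8 ratios compared).
The ratio of Nefh to Nefl counts was 0.511, 0.491 and 0.496 in control pools and 0.445, 0.444 and 0.41 in prenatal stress pools, a log2 difference of -0.21 (exact permutation p = 0.1, adjusted 0.267). The ratio of Nefh to Nefm, the tailed subunits, was 0.448 ± 0.00976 and 0.446 ± 0.0157 and overlapped (log2 difference -0.01, exact permutation p = 0.9). The paired differences of same-numbered pools were -0.25, -0.16 and -0.19 for Nefm to Nefl and -0.20, -0.14 and -0.27 for Nefh to Nefl. As neither ratio overlapped between groups, the sign of these differences was given in advance. The same holds for the sign of the differences with 1 pool left out. Leaving out any 1 pool gave log2 differences of -0.22 to -0.16 and -0.23 to -0.17, and a correction for GC content and length, added after the data had been seen, gave -0.19 and -0.22.
These separations were not rare among all genes. Divided by the Nefl count of the pool, 28.8% of 20145 genes had groups that did not overlap, and 27.4% were lower in every prenatal stress pool than in any control pool. With pools scaled by Nefl in edgeR, also added after the data had been seen, the median of all genes moved to -0.12 and 0.109% of genes passed, 0.0546% lower. There Nefm stood at -0.20 ± 0.06 (adjusted p = 0.17) and Nefh at -0.21 ± 0.06 (adjusted p = 0.159), and neither passed. Lower values than Nefl were not limited to these subunits. Vim stood at -0.27 ± 0.07 (adjusted p = 0.144), also without overlap. Prph (-0.10), Ina (-0.17) and Nes (-0.30) were negative as well, and Gfap was positive (0.36 ± 0.75).

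Prph, the filament of small unmyelinated neurons, had the narrowest 95% interval of the 8. It stood at 1050, 1032 and 1034.5 CPM in control pools and at 1045, 1078 and 1043.5 CPM in prenatal stress pools. The groups overlapped, with a coefficient of variation of 0.915% and 1.81%. The log2 fold change was 0.02 ± 0.03, and its 95% interval ran over folds of 0.967 to 1.07 (adjusted p = 0.833).
The ratio of Prph to Nefl counts was 0.257 to 0.283 in control and 0.245 to 0.256 in prenatal stress pools. The log2 difference was -0.10 without overlap (exact permutation p = 0.1, adjusted 0.267), and -0.06 without control pool 1. Of all genes, 27.4% were lower without overlap when divided by Nefl. The median of all genes in edgeR scaled by Nefl was -0.12, so the Prph value lay near that of the typical gene. After the GC content and length correction the groups overlapped (-0.13). The ratio of Prph to Nefh overlapped (0.535 ± 0.0167 and 0.577 ± 0.0414, exact permutation p = 0.3).
Ina stood at 41.8, 49.4 and 42.0 CPM in control pools and at 41.9, 47.1 and 40.3 CPM in prenatal stress pools. Pool 2 was the highest of each group and the groups overlapped (log2 fold change -0.04 ± 0.08, adjusted p = 0.896; 0.04 ± 0.07 without control pool 2). Ina shares 456 exonic bases with Nt5c2 on the opposite strand, so its counts carry the same limit on strand as Nefl and Nefm.

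The 15 markers of all neurons summed to 10970 to 11220 CPM in control and 10500 to 10740 CPM in prenatal stress pools, with 8 negative and 0 past the test. Their mean log2 CPM differed by -0.03, which adds to every difference measured against it. Of the 15, 3 were lower without overlap and 0 higher, against 8.76% and 9.33% of all genes. Among the 3 were Gap43 (-0.25), which is also counted with the injury genes below, and Tubb3 (-0.18). Relative to the mean log2 CPM of 15 markers of all neurons, Nefl was 2.99 to 3.11 above it in control pools and 3.17 to 3.26 above it in prenatal stress pools, a difference of 0.15 without overlap (exact permutation p = 0.1, adjusted over 5 genes 0.25). Prph was 1.15 to 1.17 above it in control and 1.20 to 1.23 in prenatal stress pools (difference 0.05, exact permutation p = 0.1, adjusted 0.25), but stood at -0.02 against markers of small unmyelinated neurons. Nefh (-0.06), Nefm (-0.05) and Ina (-0.01) overlapped.
The 16 markers of large myelinated neurons summed to 2222 to 2407 CPM in control and 2375 to 2469 CPM in prenatal stress pools, with 12 positive and 0 past the test (median 0.10). The highest control sum was that of control pool 3, where Pvalb, a calcium buffer of proprioceptive neurons and of fast muscle, stood at 158 CPM against 54.3 to 62.2 CPM in the other 5 pools. Without Pvalb, an alternative added after the data had been seen, the sums were 2163 to 2249 and 2313 to 2412 CPM and did not overlap. Against the whole list Nefl differed by 0.06, Nefm by -0.14 and Nefh by -0.15 (exact permutation p = 0.3, 0.2 and 0.2). The groups thus overlapped for each, also for Nefl, which had separated them against all-neuron markers. Without Pvalb the differences were 0.03, -0.17 and -0.18, and they were not tested. The 18 markers of small unmyelinated neurons summed to 5556 to 5941 and 5579 to 6033 CPM, with 10 positive and 0 past the test. Of the 14 tested genes switched on by nerve injury, 5 passed lower (Gpr151, Sprr1a, Gal, Nts and Atf3) against 0.0447% of all genes, and the 14 summed to 480 to 491 CPM in control and 379 to 395 CPM in prenatal stress pools. None of these markers was at 0 counts in any pool. The injury gene calls fell when any 1 pool was left out. Then 0 of the 14 passed lower without control pool 2 or without prenatal stress pool 1, and 1 or 2 without any other pool. Calls over all genes fell too, from 26 to between 2 and 14. All 5 called genes were lower in every prenatal stress pool than in any control pool. So were 10 of the 14, against 8.76% of all genes, while 1 was higher in the same way. The injury list was chosen with earlier results of these data known. Setting its counts beside the shares of all genes is therefore no independent test. Whether neuron classes or injury genes had a part in the neurofilament values was not tested.

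Vim, the filament of glia, fibroblasts and vessels, stood at 534, 536 and 505.5 CPM in control pools and at 511, 468 and 446.5 CPM in prenatal stress pools. Prenatal stress pool 1 lay above control pool 3, so the groups overlapped, and the other prenatal stress pools were below all controls. The log2 fold change was -0.15 ± 0.05, a fold of 0.904 with an interval of 0.829 to 0.986 (adjusted p = 0.403).
Satellite glia, which wrap the neuron bodies and contain vimentin, had values of the same sign: their 9 markers summed to 2782 to 2981 CPM in control and 2470 to 2614 CPM in prenatal stress pools, with 9 of 9 negative and 0 past the test. Fabp7, a fatty acid binding protein of these cells, had the smallest p (-0.55 ± 0.13, adjusted p = 0.273). Other glia did not all share that sign. The 7 nonmyelinating Schwann cell markers summed to 2204 to 2276 CPM in control and 2256 to 2316 CPM in prenatal stress pools. They overlapped, with 3 positive, 4 negative and 0 past the test. Myelinating Schwann cell markers are given with Nes. The 10 fibroblast markers summed to 2064 to 2637 and 2094 to 2384 CPM, the 12 endothelial and mural markers to 465 to 484 and 442 to 506 CPM, and the 10 macrophage markers to 85.5 to 95.3 and 72.1 to 99.4 CPM, all overlapping. None of these markers was at 0 counts in any pool, and their part in the Vim value was not tested.

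Nes stood at 84.7, 81 and 69 CPM in control pools and at 74.1, 79.3 and 55.6 CPM in prenatal stress pools. The third pool was the lowest of each group and the groups overlapped (log2 fold change -0.17 ± 0.13, adjusted p = 0.691). With the replicate number as a block the value was -0.18 ± 0.06 (adjusted p = 0.334), and without prenatal stress pool 3 it was -0.04 ± 0.09. The ratio of Nes to Vim counts was 0.149 ± 0.0112 in control and 0.146 ± 0.0224 in prenatal stress pools (exact permutation p = 0.9).
The 12 myelinating Schwann cell markers also had their lowest sum in pool 3 of each group. It was 7689 CPM in control pool 3 and 6805 CPM in prenatal stress pool 3, against 8463 to 8939 CPM in the other 4 pools. That low was not limited to Nes among the filament genes, as Vim and Nefm were also lowest in pool 3 of each group. Of the 12 Schwann cell markers 10 were negative, 2 were positive and 0 passed the test. The part of these cells in the Nes value was not tested.

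Gfap was the most variable of the 8. It stood at 9.57, 26.2 and 41.2 CPM in control pools and at 9.92, 85.1 and 13.8 CPM in prenatal stress pools, from 664 to 5608 reads. The groups overlapped. The log2 fold change was 0.50 ± 0.85 (adjusted p = 0.874) and turned to -1.12 ± 0.56 without prenatal stress pool 2 (adjusted p = 0.471).
Markers of spinal cord astrocytes and oligodendrocytes split the pools in the same way. The 15 markers summed to 119, 361.5 and 297 CPM in control pools and to 131, 394 and 162 CPM in prenatal stress pools, with 14 negative and 0 past the test. Mog, a myelin protein of oligodendrocytes, stood at 0.259, 7.56 and 5.99 CPM in control and at 0.504, 9.92 and 1.36 CPM in prenatal stress pools. The astrocyte water channel Aqp4 stood at 13.8, 29.1 and 25 CPM and at 13.4, 35.2 and 18.2 CPM (Mog and Aqp4 were chosen after their values were seen).
In the 3 pools with marker sums of 119 to 162 CPM Gfap lay between 9.57 and 13.8 CPM, and in the 3 with 297 to 394 CPM between 26.2 and 85.1 CPM. Within the 3 with high sums the order differed: control pool 2 had a higher sum than control pool 3 and a lower Gfap. None of the 15 markers was at 0 counts in any pool. The part of spinal cord tissue in the Gfap values was not tested. Nes did not follow that split: it lay between 55.6 and 84.7 CPM in the former pools and between 69 and 81 CPM in the latter. Without the pools numbered 2 of both groups, which had the highest marker sums, 0 of the 8 genes passed and Gfap stood at -1.11 ± 0.67.

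**Figure D4:**
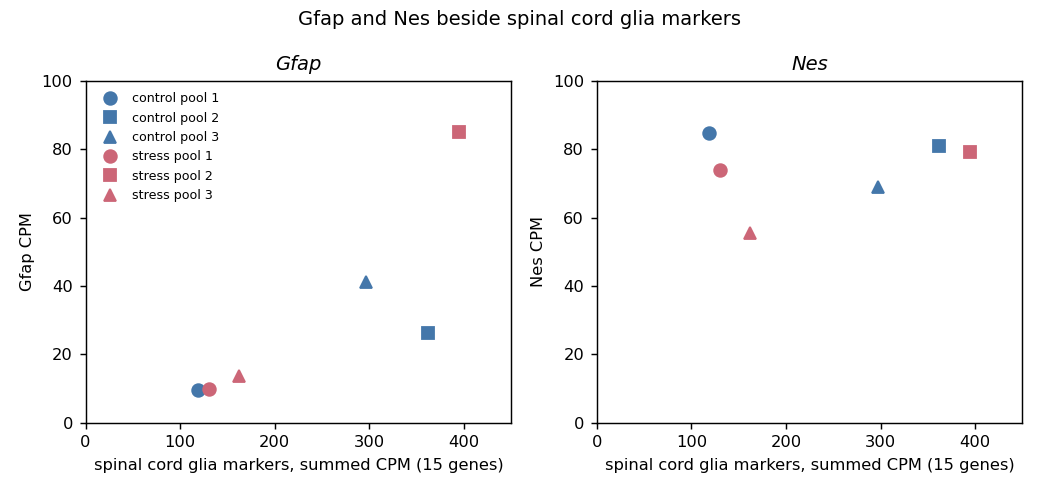
CPM of Gfap (left) and Nes (right) against the summed CPM of 15 spinal cord glia markers in each control (blue) and prenatal stress (red) pool, the marker shape giving the pool number. Gfap is at most 13.8 CPM in the 3 pools with low marker sums and at least 26.2 CPM in the 3 with high sums, while Nes shows no such split.

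The 8 genes did not vary together over the 6 pools. On log2 CPM, Nefh and Nefm went together (Pearson r = 0.946, n = 6 pools), whereas Nefl stood at r = 0.02 with Nefh, -0.26 with Nefm and 0.535 with Prph. Nes stood at r = 0.884 with Nefm and Vim at 0.777 with Nefm. Prenatal stress pool 3 was the lowest of the 6 pools for Nefh (1670 CPM), Nefm (3901 CPM), Nes (55.6 CPM) and Vim (446.5 CPM). The high values among these genes may rest largely on that pool, and r without it was not computed. The points share libraries and scaling, and these values describe 6 pools only.
Among 10129 other genes with a mean of at least 10 CPM, those most like Nefl over the 6 pools were Vapb (r = 0.991), Dpp6 (0.973) and Gatd3a (0.973). Nosip (0.998), Sox2ot (0.995) and Micos13 (0.995) were most like Nefm, and Slitrk1 (0.996), Mavs (0.995) and Map3k11 (0.993) were most like Nefh. With 6 points such values are common: 106 genes were over 0.9 with Nefl, 308 with Nefm and 240 with Nefh.

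Of the other intermediate filament genes, 12 of 14 passed the low-count filter and 0 passed the test (8 positive, median 0.04). Synm, whose product synemin joins vimentin and desmin filaments, stood at 487, 520 and 523 CPM in control pools and at 542, 511 and 594 CPM in prenatal stress pools (0.11 ± 0.06, adjusted p = 0.544). Des, the muscle filament desmin, stood at 53.7 CPM in control pool 3, the pool with the muscle markers, and at 3.06 to 4.79 CPM in the other 5 pools (-2.17 ± 1.07, adjusted p = 0.497). Krt7, a keratin of simple epithelia, had the smallest p and lay at 0.144 to 0.185 CPM in control and 0.245 to 0.31 CPM in prenatal stress pools (adjusted p = 0.431). Krt80 (0.46 ± 0.26), Bfsp2 (-0.27 ± 0.23) and Sync (0.05 ± 0.05) followed.

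Genes that link, carry or modify neurofilaments gave 0 calls among 34 tested. Of these 23 had positive values, with a median of 0.04, and 10 had an unadjusted p under 0.05, against 11.1% of all genes. The groups did not overlap for 5 higher and 6 lower genes, against 9.33% and 8.76% of all genes.
Klc1, a light chain of the kinesin motor that moves neurofilaments, stood at 1139, 1141 and 1139 CPM in control pools and at 1254, 1268 and 1219 CPM in prenatal stress pools. The control pools were level and all prenatal stress pools lay above them (0.13 ± 0.03, adjusted p = 0.273). The kinesin heavy chains Kif5a (0.11 ± 0.06), Kif5b (0.10 ± 0.06) and Kif5c (0.12 ± 0.05) had values of the same sign.
Cdk5r2, an activator of the kinase Cdk5 that phosphorylates neurofilament tails, stood at 83.3, 78.2 and 77.8 CPM in control pools and at 94.6, 101 and 86.5 CPM in prenatal stress pools (0.24 ± 0.06, adjusted p = 0.29). Cdk5 itself stood at -0.08 ± 0.03 (adjusted p = 0.422). The groups did not overlap for Cdk5r2, higher, or for Cdk5, lower. The crosslinker Macf1 (0.15 ± 0.05, adjusted p = 0.385) and the glycosyltransferase Ogt (0.14 ± 0.05, adjusted p = 0.402) were positive. The small heat shock proteins Cryab (-0.22 ± 0.07, adjusted p = 0.354) and Hspb8 (-0.09 ± 0.03, adjusted p = 0.366) were negative. Hspb1, of the same family, was slightly positive and overlapped (0.04 ± 0.04, adjusted p = 0.772).

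**Figure D5:**
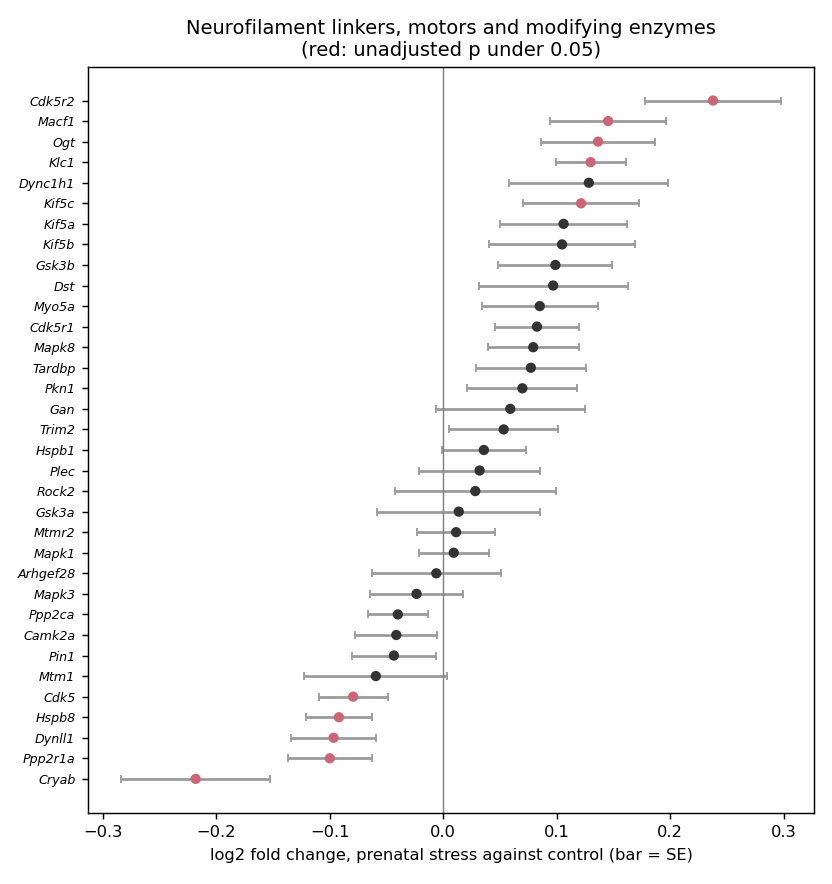
Log2 fold change of prenatal stress against control (horizontal axis) with its SE for the 34 genes that link, carry or modify neurofilaments, red where the unadjusted p was under 0.05. Values run from -0.22 (Cryab) to 0.24 (Cdk5r2), and 0 of the 34 passed after adjustment over all genes.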

How the data were processed

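The deposited files held raw read counts per gene symbol, 1 per pool, without normalization by the authors. FastQC, STAR 2.4 and HTSeq 0.9.1, with the builds GRCm39 and mm10, are named in the submitters' processing notes; their roles, the build used and the strand setting are not known from the sources used. Reads given to no gene (15.3% to 16.2% of each file) were left out. The test over all genes used edgeR 4.0.16 (R 4.3.3, TMM, filterByExpr with a minimum count of 10, quasi-likelihood F test of group, adjusted p under 0.05 over 20146 genes); the SE is the log2 fold change divided by the square root of F. CPM carry TMM factors, and log2 CPM a prior count of 2. Ratios were tested by exact two-sided permutation (SciPy 1.17.1). Alternatives were DESeq2 1.42.0, other size factors, filters and dispersions, GC content and length offsets (found for 95.2% of genes), each pool left out, and the replicate number as a block.

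Transcripts and coding sequences came from GENCODE M21 (GRCm38), taking for each of the 8 genes the transcript with the longest coding sequence. The search for similar transcripts, and the GC content and length offsets, used instead the longest annotated transcript of each gene. No transcript of another gene matched those of the 8 genes (minimap2 2.31-r1302, at least 90% identity over 200 bases) beyond the Nefl with Nefm and Ina with Nt5c2 overlaps. Same-numbered pools, numbered alike in the labels, deviated together (r = 0.337, 0.218 and 0.13 over all genes), so the block is reported as a pairing found in the data. Control pool 3 with prenatal stress pool 2 stood at 0.122, almost as high as the third pair, and the other differently numbered pairs were negative. As the pairing was seen in these same data, smaller errors with the block are no separate support. No 2 pools agreed within sampling noise (chi-square per degree of freedom 10.98 to 36.41). The members and lists were chosen with earlier results of these data known. By rule the named genes were the 8 members and up to 6 of smallest p from the other filament and the partner list. The rule added up to 2 and any that passed from each marker list, and the 3 genes most like a member. Avil, Isl1, Mog, Aqp4, Kif5a, Kif5b, Kif5c and Cdk5 are outside it, as are Pvalb and Hspb1, and some genes within it are left unnamed.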

Additional observations from a re-analysis of the deposited data

How the results depend on the processing

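None of the 8 genes passed in any of the 15 alternatives. The number of genes called over the whole table, 26 (17 higher, 9 lower), was 14, 2 and 13 without control pools 1, 2 and 3 and 4, 10 and 10 without prenatal stress pools 1, 2 and 3 (2 to 11 higher, 0 to 4 lower). It was 49 without the low-count filter (24 lower), 330 by DESeq2 (158 higher, 172 lower) and 1 without the pools numbered 2 (0 higher, 1 lower); lower calls were 14 with the block and GC content and length offsets together. Leaving out 1 pool turned the sign for Ina (-0.11 to 0.035), Gfap (-1.12 to 1.03), Nefh to Nefm (-0.025 to 0.022), Nes to Vim (-0.14 to 0.079) and Gfap to Vim (-0.76 to 0.85), and, against all-neuron markers, for Nefh (-0.10 to 0.0048) and Ina (-0.074 to 0.062). Gfap was also reversed without the pools numbered 2 (-1.11), and Prph against small unmyelinated neuron markers (-0.018). The cause was not tested. With the replicate number as a block, Nefl stood at 0.12, Nefm at -0.08, Nefh at -0.08 and Vim at -0.15, the whole table gave 22 calls, and no call among the 8 genes changed; Nefm to Nefl stood at -0.20 (exact sign-flip permutation p = 0.25, the smallest that 3 pairs allow). With 3 pools a group, the permutation tests cannot pass 0.05.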
